A study of Mus musculus with 2 samples.

Results

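Pi16/Cd81-low cells of the wild-type mouse colon were the 1066 cells that had an Epcam value below 5, Col1a1 of at least 5, Cd34 of at least 1, Pecam1 at 0, Myh11 below 5, Rgs5 below 10 and a sum of Pi16, Pcolce2 and Cd81 below 5. They made up 14.2% of the 7495 cells of the wild-type library (95% Clopper-Pearson interval 13.4 to 15) and 33.7% of its 3160 Col1a1-positive cells, meaning those with Epcam below 5 and Col1a1 of at least 5 (32.1 to 35.4). The limits keep collagen-producing cells with the surface protein CD34 and take away epithelial, endothelial, muscle-like and pericyte-like cells and the Pi16- and Cd81-high fibroblasts. The values are UMI counts that the authors had corrected to a common depth, here called corrected counts, and all levels below are mean corrected counts per cell. The 2094 other Col1a1-positive cells comprised 509 Pi16/Cd81-high cells, which passed the same limits but had a sum of at least 5, 551 Pdgfra-high Cd34-negative cells, 597 Myh11-high cells and 437 remaining Col1a1-positive cells. The Pdgfra-high Cd34-negative cells were chosen by Cd34 at 0 and Pdgfra of at least 5. They met the same limits on Pecam1, Myh11 and Rgs5, without a limit on the sum.

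The wild-type library held EpCAM-positive and EpCAM-negative CD45-negative cells sorted from the colon of C57BL/6 mice and mixed in equal parts, and was made with the V3 kit. A second library held mesenchymal cells sorted as GFP-positive from Pdgfra-H2B-eGFP reporter mice, in which a nuclear green fluorescent protein follows the activity of the Pdgfra gene, and was made with the V2 kit. Each library pooled 3 female mice aged 8 to 12 weeks, and the series holds 11904 cells in all. Cells could not be assigned to mice, so that each mouse line is 1 sample, no p-value is given, and every interval covers counting error only.

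Fibroblasts of the colon lie beneath the epithelium and make the matrix it rests on. Epithelial stem cells at the crypt base depend on Wnt ligands, on R-spondins, which strengthen Wnt signals, and on secreted antagonists of bone morphogenetic proteins (BMPs), whereas BMP ligands favour differentiation towards the crypt top. The study named fibroblast classes after the crypt bottom and the crypt top, and the position of a cell along the crypt was not measured in the values used here.

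Genes of the rule are given as a description, since they chose the cells. Col1a1, a chain of type I collagen, had a mean of 19.7 in the Pi16/Cd81-low cells (median 18, highest 95), against 25.2 in Pi16/Cd81-high and 19.0 in Pdgfra-high Cd34-negative cells. Cd34 had means of 5.85 and 9.50 in Pi16/Cd81-low and Pi16/Cd81-high cells. Cd81, a tetraspanin, was above 0 in 24.0% of the Pi16/Cd81-low cells, so that the class was low in Cd81 rather than free of it. Pdgfra, which the rule did not use for these cells, had a mean of 2.08 in them and 3.25 in Pi16/Cd81-high cells. Its mean of 10.3 in Pdgfra-high Cd34-negative cells is set in part by the limit on Pdgfra that chose that class.

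Cells just outside the limits differed to an unequal degree from those just inside. Cells that passed every other limit but had Cd34 at 0 (791 cells) had a mean Serpina3n of 0.424, Pdgfra of 7.63 and Grem1 of 0.0291, while the 82 cells with Cd34 at 1 had 3.37, 3.43 and 0.744 and the 984 cells with 2 or more had 3.91, 1.97 and 1.28. Wnt5a had means of 2.41, 1.15 and 0.313 in these cells, so that those with Cd34 at 1 lay between the others for each of these genes. Igfbp3 (5.56, 16.6 and 12.8) and Adamdec1 (33.1, 48.0 and 34.4) were instead highest in the cells with Cd34 at 1. At the Col1a1 limit, the 11 cells at 4 and the 15 cells at 5 had mean Serpina3n of 3.45 and 3.4, Adamdec1 of 39.5 and 16.5 and Stmn2 of 1.55 and 5.53. At the limit of the Pi16, Pcolce2 and Cd81 sum, Adamdec1 had a mean of 14.1 both in the 37 cells with a sum of 4 and in the 25 cells with a sum of 5, while Stmn2 had means of 5.32 and 1.64. Serpina3n (1.41 and 2.64) and Igfbp3 (7.92 and 13.2) were higher in the cells just outside this limit. Col15a1 (4.19 and 2.72), Edil3 (1.49 and 1.36) and Ccl8 (0.162 and 0.12) were lower there.

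Totals per cell were narrow after the authors' correction, from 6120 to 16389 in the wild-type library, and the sequenced depth of a cell could not be recovered. A median of 2675 genes was detected per cell in Pi16/Cd81-low, 2780 in Pi16/Cd81-high and 2537 in Pdgfra-high Cd34-negative cells. It was 3199 in the 2461 Epcam-high cells without Col1a1, called Epcam-high cells here. Their shares are given below as levels in epithelial cells chosen to lack Col1a1. This choice left out epithelial cells with any Col1a1 counts, including counts from free RNA. The shares can therefore be too low and do not measure free fibroblast RNA. The median mitochondrial share was 8.66% in Pi16/Cd81-low cells and 5.97% in Pi16/Cd81-high cells. Immediate early genes and the heat shock genes Hspa1a and Hspa1b, which respond to stress and to tissue dissociation, summed to 79.4 in Pi16/Cd81-low cells. The sum was 134 in Pi16/Cd81-high and 112 in Pdgfra-high Cd34-negative cells. The part of these differences in the results was not tested. The libraries shared 1 cell barcode.

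Markers of other cell types were mostly at or near 0 in the Pi16/Cd81-low cells. The mesothelial genes Upk3b, Lrrn4 and Wt1 were at 0, as were the glial genes Sox10, Gfap and Gpr37l1, the lymphatic genes Mmrn1 and Flt4, and the pericyte gene Vtn. Of the genes measured over the other Col1a1-positive cells, 4 of 5 pericyte, 3 of 3 endothelial, 7 of 7 muscle and 1 of 2 interstitial cell of Cajal genes were at least 2-fold lower in Pi16/Cd81-low cells and none was higher. The rule sets the first 3 counts in part, because it left cells with Pecam1 or high in Rgs5 or Myh11 to the others. Epithelial markers summed to 4.17 in these cells and to 4.39 in Pi16/Cd81-high and 4.50 in Pdgfra-high Cd34-negative cells, against 224 in Epcam-high cells, and none of the 9 measured epithelial genes differed 2-fold in any comparison. Muscle markers summed to 2.52 in Pi16/Cd81-low cells, above the 0.963 of Pi16/Cd81-high and below the 17.9 of Pdgfra-high Cd34-negative cells. Of the 7 muscle genes, 4 (Actg2, Acta2, Tagln and Lmod1) were at least 2-fold higher than in Pi16/Cd81-high cells and 0 lower. Haemoglobin transcripts summed to 9.11, 9.56 and 12.1 in the 3 classes with a median of 0 in each, and 54.3% of the Hbb-bs sum of the Pi16/Cd81-low cells lay in 1 cell.

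The 5 genes given as markers of the class, Serpina3n, Col15a1, Igfbp3, Edil3 and Ccl8, were each more than 2-fold higher in the mean of Pi16/Cd81-low cells than in the other Col1a1-positive cells, in Pi16/Cd81-high cells and in Pdgfra-high Cd34-negative cells. The markers were proposed with these data in view, so that this checks the name of the class and is no independent evidence. RefSeq held the start region of 4 of the 5. The 250 bases upstream of each RefSeq start on GRCm38.p6 are printed because they are the DNA just before these starts of genes that name the class. They lie at chr12:104406458-104406707 on the plus strand for Serpina3n, chr4:47207762-47208011 on the plus strand for Col15a1, chr11:7213924-7214173 on the minus strand for Igfbp3 and chr11:82114935-82115184 on the plus strand for Ccl8. The gene coordinates given below are from GENCODE, whose starts of Serpina3n and Col15a1 lie further downstream, so these windows do not adjoin them. They run 5′ to 3′ along the gene and overlap no annotated exon. Capitals mark motif matches.
Serpina3n: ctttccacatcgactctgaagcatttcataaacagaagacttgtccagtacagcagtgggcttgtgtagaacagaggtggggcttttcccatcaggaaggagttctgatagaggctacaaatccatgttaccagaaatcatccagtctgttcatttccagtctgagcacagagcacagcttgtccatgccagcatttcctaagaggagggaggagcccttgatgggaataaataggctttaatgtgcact
Col15a1: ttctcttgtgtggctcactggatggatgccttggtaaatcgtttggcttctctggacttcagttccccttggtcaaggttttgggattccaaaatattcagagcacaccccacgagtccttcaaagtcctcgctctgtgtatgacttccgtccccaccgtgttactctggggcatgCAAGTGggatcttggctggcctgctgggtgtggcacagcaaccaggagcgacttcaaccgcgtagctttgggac
Igfbp3: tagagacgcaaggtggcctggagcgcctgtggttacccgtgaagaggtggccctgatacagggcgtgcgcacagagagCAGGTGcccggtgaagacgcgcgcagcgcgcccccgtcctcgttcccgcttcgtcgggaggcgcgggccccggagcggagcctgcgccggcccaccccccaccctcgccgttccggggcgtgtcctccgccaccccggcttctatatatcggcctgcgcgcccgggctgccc
Ccl8: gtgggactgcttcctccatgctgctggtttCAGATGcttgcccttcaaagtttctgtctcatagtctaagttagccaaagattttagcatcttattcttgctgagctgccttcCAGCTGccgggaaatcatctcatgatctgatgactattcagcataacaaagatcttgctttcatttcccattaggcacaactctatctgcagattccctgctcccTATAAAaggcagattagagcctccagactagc
The 4 regions shared no match to a searched motif. The TATA box letters TATAAA, present on either strand in 12.4% of 32817 promoter regions of this length, occurred once, in Ccl8, beginning 32 bases before the start. The E-box CANNTG, present in 66.2% of all regions, occurred once in Col15a1, once in Igfbp3 and at 2 positions in Ccl8. No match to the GC box GGGCGG (32.7% of all regions), the STAT-type TTCNNNGAA (7.01%) or the AP-1-type TGANTCA (6.75%) lay in these windows. GC content was 46.4% for Serpina3n, 53.6% for Col15a1, 73.2% for Igfbp3 and 44.8% for Ccl8.

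Serpina3n (chr12:104406729-104414329), a secreted inhibitor of serine proteases, ranged from 0 to 33 in the Pi16/Cd81-low cells with a median of 2. It was above 0 in 74.4% of them (71.7 to 77.0), and in 63.7% after thinning each cell to 5000 corrected counts. The share was 43.4% in Pi16/Cd81-high, 7.08% in Pdgfra-high Cd34-negative and 0.203% in Epcam-high cells. The distributions overlapped, but few Pdgfra-high cells reached the median of the class. Its mean of 3.87 was 6.45-fold that of the other Col1a1-positive cells (0.592), 3.39-fold that of Pi16/Cd81-high cells (1.14) and 22.9-fold that of Pdgfra-high Cd34-negative cells (0.160).

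Col15a1 (chr4:47208161-47313167) encodes a collagen of the basement membrane zone and was the most widely detected of the 5. It was above 0 in 92.8% of the Pi16/Cd81-low cells (91.1 to 94.3; 86.7% thinned), with a median of 5 and a highest value of 24. The corresponding shares were 48.3% in Pi16/Cd81-high, 20.9% in Pdgfra-high Cd34-negative and 1.26% in Epcam-high cells. Most cells of the other classes therefore lay below the typical Pi16/Cd81-low cell. The mean of 5.29 was 3.35-fold that of Pi16/Cd81-high and 14.6-fold that of Pdgfra-high Cd34-negative cells.

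Igfbp3 (chr11:7206086-7213923), an insulin-like growth factor binding protein, ranged from 0 to 118 with a median of 8 and was above 0 in 86.4% of the class (84.2 to 88.4; 82.0% thinned). It was above 0 in 26.3% of Pi16/Cd81-high, 54.3% of Pdgfra-high Cd34-negative and 1.71% of Epcam-high cells. Unlike Serpina3n and Col15a1, its values came closer to those of Pdgfra-high than of Pi16/Cd81-high cells. The mean of 13.1 was 6.22-fold that of Pi16/Cd81-high cells (2.09) and 3.20-fold that of Pdgfra-high Cd34-negative cells (4.08). Over all other Col1a1-positive cells the log2 ratio was 2.04, and 1.41 when Cd34 had to be at least 3.

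Edil3 (chr13:88821472-89323223), a secreted ligand of integrins, was above 0 in 55.3% of the Pi16/Cd81-low cells (52.2 to 58.3; 44.3% thinned), with a median of 1 and a highest value of 20. It was above 0 in 12% of Pi16/Cd81-high cells, in 3 of 551 Pdgfra-high Cd34-negative cells and in 0.284% of Epcam-high cells. The mean of 1.63 was 6.43-fold that of Pi16/Cd81-high cells, with a log2 ratio of 2.69. This ratio was 1.98 with the limit of the Pi16, Pcolce2 and Cd81 sum at 3. That limit moved the 85 cells with a sum of 3 to 4 into the Pi16/Cd81-high class. Ccl8 (chr11:82115185-82116799), a chemokine that attracts monocytes and lymphocytes, was the sparsest marker, above 0 in 19.8% of the class (17.4 to 22.3; 14.4% thinned) with a median of 0 and a highest value of 34. It was above 0 in 4.52% of Pi16/Cd81-high, 1.27% of Pdgfra-high Cd34-negative and 0.569% of Epcam-high cells, and its mean of 0.477 was 4.94-fold that of Pi16/Cd81-high cells. With a pseudocount of 0.1 in place of 0.01 the log2 ratio of Ccl8 over these cells was 1.61 instead of 2.31.

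**Figure D1:**
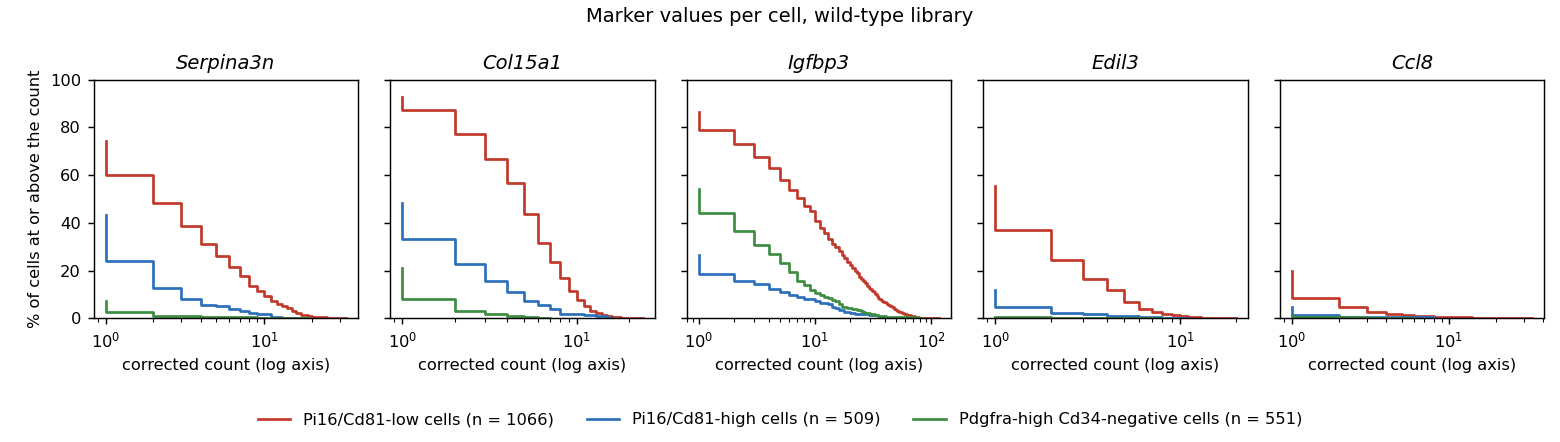
Percent of cells at or above each corrected count (x axis, log scale) for the 5 marker genes in Pi16/Cd81-low (n = 1066), Pi16/Cd81-high (n = 509) and Pdgfra-high Cd34-negative cells (n = 551) of the wild-type library. At a corrected count of 1 the curves of the Pi16/Cd81-low cells start at 92.8% for Col15a1 and at 19.8% for Ccl8, above both other classes for all 5 genes.

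Over the other Col1a1-positive cells, 164 of 11323 genes tested were at least 2-fold higher in the Pi16/Cd81-low cells (1.45%) and 664 at least 2-fold lower (5.86%). A gene was tested when it was above 0 in at least 2% of the Col1a1-positive cells, and ratios use a pseudocount of 0.01. The highest log2 ratio among genes with a mean of at least 0.5 belonged to Stmn2, a stathmin that binds tubulin and is best known from neurons. Stmn2 was above 0 in 48.3% of the Pi16/Cd81-low cells (45.4% thinned), with a median of 0 and a highest value of 50, but in 7.07% of Pi16/Cd81-high cells, 5 of 551 Pdgfra-high Cd34-negative cells and 0.731% of Epcam-high cells. It was thus present in many but not all cells of the class, at a mean of 4.32 against 0.445 in the others (log2 ratio 3.25). Over Pi16/Cd81-high cells the log2 ratio of Stmn2 was 3.68, and 2.11 with the limit between both classes at a sum of 3.

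Sfrp2, a secreted Wnt inhibitor, had means of 0.845 and 0.11 (log2 ratio 2.84). Tnfsf13b, which encodes the B cell survival factor BAFF, had means of 1.5 and 0.259 (2.49), and was above 0 in 65.3% of Pi16/Cd81-low, 19.1% of Pi16/Cd81-high and 1.71% of Epcam-high cells. The remaining leaders were Igfbp5 (log2 ratio 2.23), the complement component C4b (2.16), the retinoic acid-producing enzyme Aldh1a3 (2.13), the adhesion molecule Vcam1 (2.00) and Hapln1, which links hyaluronan to proteoglycans (1.99). Of the 8 genes with the lowest ratios, 6 are genes of the smooth muscle contractile apparatus, Cnn1 (log2 ratio -6.38), Actg2 (-6.31), Lmod1 (-5.26), Tagln (-4.91), Acta2 (-4.79) and Myl9 (-4.62). The rule sets the ratios of these 6 in part, because it left cells high in Myh11 to the other group. The remaining ones were the antibody gene Igha (-4.86, but 0.11 with a Col1a1 limit of 10) and Gas1 (-4.68).

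Against Pi16/Cd81-high cells, the class most like it by the rule, 430 genes were at least 2-fold higher in Pi16/Cd81-low cells (3.8% of 11323) and 525 at least 2-fold lower (4.64%). Adamdec1, a secreted metalloprotease of intestinal mesenchyme and macrophages, led the higher genes. It was above 0 in 93.5% of Pi16/Cd81-low cells (88.6% thinned; median 12, highest 282), in 25.7% of Pi16/Cd81-high and in 1.34% of Epcam-high cells. The range within the class was wide, from cells without the transcript to the cell with 282 corrected counts. Means were 35.4 and 1.42, a log2 ratio of 4.63, while Pdgfra-high Cd34-negative cells had a mean of 34.3. Adamdec1 therefore set Pi16/Cd81-low cells apart from Pi16/Cd81-high cells but not from Pdgfra-high cells (log2 ratio 0.05).

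Adamdec1 was followed by Stmn2, the angiotensin precursor Agt (log2 ratio 3.09), Wnt4 (3.08), Fblim1, which links filamin to integrin adhesions (2.88), Enho, which encodes the peptide adropin (2.81), Tmem176a (2.76) and the heparan sulphate-degrading enzyme Hpse (2.72). Agt and Enho were higher still in Pdgfra-high Cd34-negative cells, with means of 3.95 and 3.03 there against 0.695 and 1.06 in Pi16/Cd81-low cells. Tmem176a, a membrane protein, had a mean of 14.7 against 2.16 in Pi16/Cd81-high cells, and its neighbour Tmem176b, which was looked up after the value of Tmem176a was seen, had 16.4 against 2.69.

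Among the genes with the lowest ratios over Pi16/Cd81-high cells, Ebf1, a transcription factor, was above 0 in 6.38% of Pi16/Cd81-low and 86.1% of Pi16/Cd81-high cells, with means of 0.126 and 6.16 (log2 ratio -5.51). The chemokine-scavenging receptor Ackr4 had means of 0.0103 and 1.31 (-6.02), the matrix protein Cilp 0.201 and 7.70 (-5.19) and the hyaluronan synthase Has1 0.0535 and 2.13 (-5.07). Angptl1 and the neuropeptide Y receptor Npy1r had log2 ratios of -5.11 and -4.91. Most Pi16/Cd81-low cells were at 0 for each of these genes. The remaining genes among the 8 lowest were the antibody genes Igha (-6.87) and Jchain (-5.14), but 1 of the 509 Pi16/Cd81-high cells held 99.1% of their Igha sum and 98.7% of their Jchain sum.

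Against Pdgfra-high Cd34-negative cells, 728 of 11322 genes were at least 2-fold higher (6.43%) and 584 at least 2-fold lower (5.16%). Among the 8 with the highest ratios, several were almost undetected in Pdgfra-high cells, so that their ratio depends on the pseudocount and counts of cells are given instead. Grem1, a secreted BMP antagonist, was above 0 in 356 of 1066 Pi16/Cd81-low and 2 of 551 Pdgfra-high cells. Sfrp2 was above 0 in 210 and 2 cells, Cd248, the endosialin of stromal cells, in 675 and 3, and the surface glycoprotein Thy1 in 470 and 2. Mfap5, a microfibril protein, had means of 6.17 and 0.0472, Serpine2, a serine protease inhibitor, 1.28 and 0.00907, and Hsd11b1, which regenerates active glucocorticoid, 1.57 and 0.0145. The lowest ratios belonged to Fgf9 (log2 ratio -4.41), the receptor gene Glp2r (-4.35), the transcription factor Sox6 (-4.01), the protease Plau (-3.88), the endothelin receptor Ednrb (-3.86), the protein C receptor gene Procr (-3.82), the phosphatase gene Ptpre (-3.72) and Eva1a (-3.66).

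Wnt ligands were spread unevenly over the classes. Of 9 measured Wnt ligands, 3 (Wnt2, Wnt2b and Wnt4) were at least 2-fold higher in Pi16/Cd81-low cells than in the other Col1a1-positive cells and 2 (Wnt5a and Wnt6) lower, with a median log2 ratio of -0.57 against -0.056 over all genes tested. For this and each list below, the shares of all genes were 1.45% higher and 5.86% lower over the other Col1a1-positive cells. They were 3.8% and 4.64% over Pi16/Cd81-high cells, and 6.43% and 5.16% over Pdgfra-high Cd34-negative cells. Wnt4 was above 0 in 62.8% of the class (50.8% thinned; median 1, highest 16), in 8.25% of Pi16/Cd81-high, 60.4% of Pdgfra-high Cd34-negative and 0.935% of Epcam-high cells. Pi16/Cd81-low and Pdgfra-high cells overlapped in Wnt4, with means of 2.17 and 2.36, while Pi16/Cd81-high cells stood below with 0.248. Over all other Col1a1-positive cells the log2 ratio of Wnt4 was 1.05, and 0.69 when Col1a1 had to be at least 10.

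Wnt2, a canonical ligand, was above 0 in 21.4% of Pi16/Cd81-low cells (13.6% thinned; highest 9), in 12.8% of Pi16/Cd81-high cells, in 1 of 551 Pdgfra-high Cd34-negative cells and in 0.163% of Epcam-high cells. Wnt2b was above 0 in 21.8% of Pi16/Cd81-low cells (highest 3), in 12.6% of Pi16/Cd81-high, 2.90% of Pdgfra-high and 0.122% of Epcam-high cells. Both ligands were sparse in each class, and the log2 ratios over Pi16/Cd81-high cells, 0.72 for Wnt2 and 0.84 for Wnt2b, were below 2-fold. Wnt5a, a mainly non-canonical ligand, showed the opposite distribution, with means of 0.377 in Pi16/Cd81-low, 0.444 in Pi16/Cd81-high and 3.11 in Pdgfra-high Cd34-negative cells.

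R-spondins were rare in Pi16/Cd81-low cells. Rspo3 was above 0 in 10.5% of them (6.66% thinned) and in 20.2% of Pi16/Cd81-high cells (12.4% thinned), against 3 of 551 Pdgfra-high Cd34-negative cells and 0.284% of Epcam-high cells. Rspo1 was above 0 in 26 of the Pi16/Cd81-low cells (2.44%), in 8.45% of Pi16/Cd81-high cells and in 1 Pdgfra-high cell. The 2 measured R-spondins were both at least 2-fold higher than in Pdgfra-high cells, and Rspo1 was at least 2-fold lower than in Pi16/Cd81-high cells.

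Among 6 measured secreted Wnt inhibitors, Sfrp1, Sfrp2 and Frzb were at least 2-fold higher than in the other Col1a1-positive cells, and Sfrp4 and Wif1 lower. Sfrp1 was above 0 in 84.7% of Pi16/Cd81-low cells (median 3, highest 30) and in 0.528% of Epcam-high cells, and its mean of 4.95 lay beside 4.76 in Pi16/Cd81-high cells and far above 0.312 in Pdgfra-high Cd34-negative cells. Sfrp2 was above 0 in 19.7% of Pi16/Cd81-low and 6.68% of Pi16/Cd81-high cells. Its log2 ratio over Pi16/Cd81-high cells was 1.24, and 0.10 with the limit between both classes at a sum of 3. That limit moved the 85 cells with a sum of 3 to 4, whose mean Sfrp2 was 2.47, into the Pi16/Cd81-high class. Sfrp4 had a mean of 0.521 in Pi16/Cd81-high cells against 0.0150 in Pi16/Cd81-low cells, and Wif1 had a mean of 0.492 in Pdgfra-high cells against 0.0122.

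Of 8 measured BMP antagonists, 0 were at least 2-fold higher and 3 (Chrdl1, Fst and Nbl1) lower than in the other Col1a1-positive cells, and 0 were higher and 3 (Grem1, Chrdl1 and Fst) lower than in Pi16/Cd81-high cells. Grem1 was above 0 in 33.4% of Pi16/Cd81-low cells (26.6% thinned; median 0, highest 26), in 41.8% of Pi16/Cd81-high cells (38.1% thinned) and in 0.366% of Epcam-high cells. Values overlapped between the CD34-positive classes, but high values were more frequent in Pi16/Cd81-high cells. The means were 1.24 and 3.92 (log2 ratio -1.65). Grem1 thus ranked between the other classes, below Pi16/Cd81-high cells and above Pdgfra-high cells.

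Of 8 measured BMP ligands, 4 (Bmp4, Bmp5, Bmp7 and Inhba) were at least 2-fold higher than in Pi16/Cd81-high cells and 1 (Gdf10) lower, with a median log2 ratio of 1.05 against -0.037 over all genes. Against Pdgfra-high Cd34-negative cells 0 were higher and 5 (Bmp2, Bmp3, Bmp5, Bmp7 and Inhba) lower, with a median of -2.40 against -0.0034. Bmp4 was above 0 in 99.3% of Pi16/Cd81-low cells (median 8, highest 27) and in 0.813% of Epcam-high cells, with means of 8.30 in Pi16/Cd81-low, 3.17 in Pi16/Cd81-high and 10.8 in Pdgfra-high cells. Bmp5 was above 0 in 63.2%, 12.8% and 96.6% of the 3 classes and in 0.569% of Epcam-high cells, with means of 1.45, 0.224 and 7.36.

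Of 22 measured growth factors, 7 were at least 2-fold higher and 6 lower than in Pi16/Cd81-high cells (3.8% and 4.64% of all genes). Against Pdgfra-high Cd34-negative cells 4 (Fgf10, Vegfc, Pdgfc and Ptn) were higher and 6 lower (6.43% and 5.16% of all genes). For Ptn, 1 of the Pi16/Cd81-low cells held 95.6% of the sum, and its log2 ratio of 2.44 was -0.12 with a Col1a1 limit of 10 and -0.0079 without cells above 10% mitochondrial counts. Pdgfc was above 0 in 19 Pi16/Cd81-low cells, and its log2 ratio of 1.07 was 0.22 with a pseudocount of 0.1. Fgf10, a mesenchymal growth factor for epithelium, was above 0 in 29.0% of Pi16/Cd81-low, 6.09% of Pi16/Cd81-high, 11.3% of Pdgfra-high and 0.244% of Epcam-high cells, and was at least 2-fold higher in all 3 comparisons (log2 ratios 1.67 over the others, 2.28 and 1.5). Hgf, hepatocyte growth factor, had means of 0.347, 0.0825 and 0.185. Nrg1 and Ereg, ligands of the epidermal growth factor receptor family, had means of 0.122 and 0.423 in Pi16/Cd81-low cells, 0.0118 and 0.0982 in Pi16/Cd81-high and 1.46 and 0.831 in Pdgfra-high cells.

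**Figure D2:**
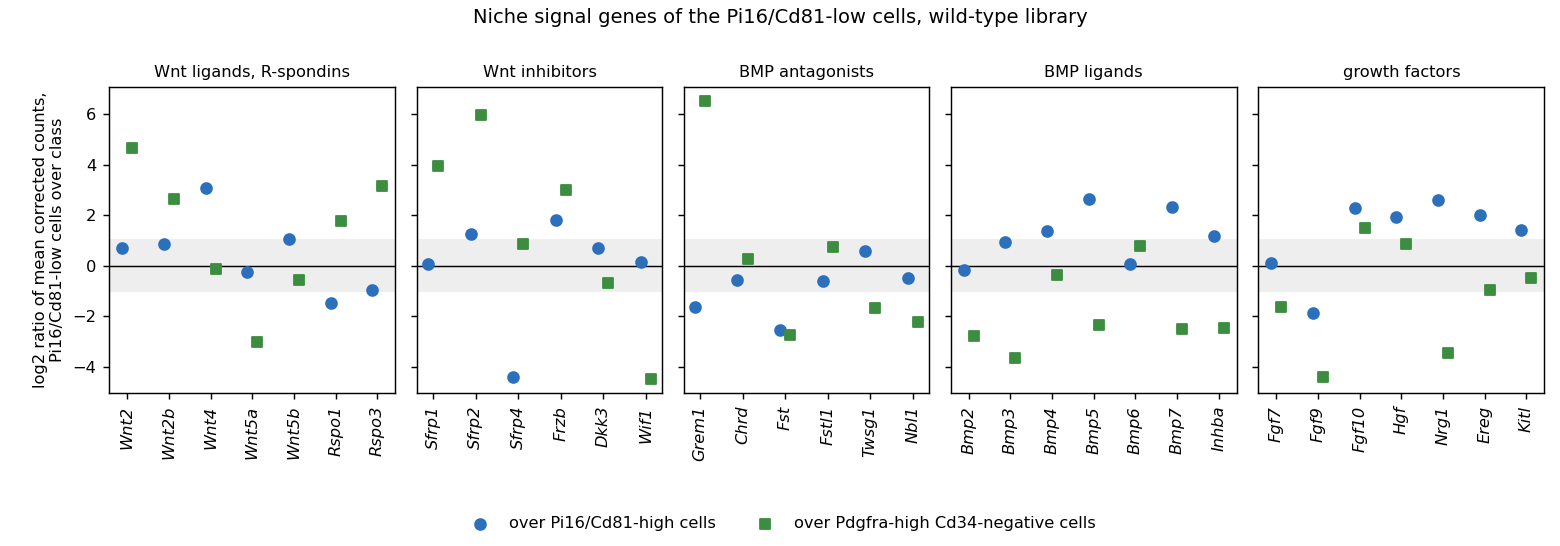
Log2 ratio of the mean corrected count of Pi16/Cd81-low cells over Pi16/Cd81-high cells (circles) and over Pdgfra-high Cd34-negative cells (squares) for Wnt ligands and R-spondins, Wnt inhibitors, BMP antagonists, BMP ligands and growth factors of the wild-type library, with the range within 2-fold in grey. Grem1 lies at -1.65 over Pi16/Cd81-high cells and far to the other side over Pdgfra-high cells, and Bmp5 shows the reverse with 2.65 and -2.33.

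Of Wnt2, Wnt2b, Wnt4, Rspo1, Rspo3 and Grem1, at least 1 was above 0 in 916 cells (85.9%), at least 2 in 490 (46.0%), at least 3 in 180 (16.9%), and none in 150 (14.1%). These are counts of detection, and a gene at 0 in a cell may have been missed. Wnt2 was above 0 in 29.8% of the 356 cells with Grem1 and in 17.2% of the 710 cells without it. Wnt4 showed the opposite relation, 56.2% with and 66.1% without Grem1.

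Of 8 measured genes of the insulin-like growth factor axis, Igfbp3, Igfbp4 and Igfbp5 were at least 2-fold higher than in the other Col1a1-positive cells and Igf1 lower. Igfbp4 had means of 16.2 in Pi16/Cd81-low, 11 in Pi16/Cd81-high and 0.944 in Pdgfra-high Cd34-negative cells. Igfbp5 had 6.21, 1.5 and 0.430 in the same order. Igfbp6 and Igf1 itself were higher in Pi16/Cd81-high cells, with means of 6.33 and 15.1 for Igfbp6 and of 0.770 and 2.65 for Igf1 in Pi16/Cd81-low and Pi16/Cd81-high cells.

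Of 11 measured chemokines, 4 (Ccl8, Ccl11, Cxcl13 and Cxcl16) were at least 2-fold higher than in the other Col1a1-positive cells and 2 (Cxcl1 and Cxcl14) lower. Ccl11, or eotaxin, was above 0 in 52.7% of Pi16/Cd81-low, 74.5% of Pi16/Cd81-high, 2.36% of Pdgfra-high and 0.528% of Epcam-high cells. Its log2 ratio over the others was 1.19, and 0.83 without cells of more than 10% mitochondrial counts. That of Cxcl13, a B cell attractant, was 1.04, and 0.33 with Cd34 of at least 3. Cxcl12 had means of 14.7, 7.54 and 17.1 in Pi16/Cd81-low, Pi16/Cd81-high and Pdgfra-high cells. Of 10 measured cytokines, Tnfsf13b and the lymphocyte survival factor Il7 were higher than in the others and the alarmin Il33 lower, the last with a mean of 0.152 against 1.27 in Pi16/Cd81-high cells.

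Among complement genes, C3, C4b and Cd55 were at least 2-fold higher than in Pdgfra-high Cd34-negative cells (log2 ratios 3.89, 4.91 and 5.30). C3, the central component, was above 0 in 14.8% of Pi16/Cd81-low and 84.3% of Pi16/Cd81-high cells, with means of 0.649 and 16.1 (log2 ratio -4.61). C4b went the other way, with means of 4 and 1.98 and a log2 ratio of 1.01. This ratio was 0.79 with the limit between both classes at a sum of 3. Among 17 serpins and proteases, Serpina3n, Serpina3g, Serpine2 and the procollagen protease Adamts2 were higher than in the others and Mmp10 and Adamts1 lower.

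Of 20 interstitial matrix genes, 17 lay within 2-fold of Pi16/Cd81-high cells, with Col12a1 higher (log2 ratio 2.02) and Col6a3 (-1.86) and Col14a1 (-1.75) lower. Against Pdgfra-high Cd34-negative cells 7 were higher, all of them except Col14a1 elastic fibre genes or fibulins, such as elastin (Eln, means 7.54 and 0.223) and Mfap4 (6.97 and 0.655), and 2 were lower. Of 16 basement membrane genes, Col15a1 alone was higher than in the other Col1a1-positive cells and higher than in Pdgfra-high cells, while Col4a5, Col4a6, Lama5 and Nid1 were lower than in both. Against Pi16/Cd81-high cells 5 of the 16 (Col4a5, Col4a6, Col15a1, Col18a1 and Lama5) were higher and 2 (Lamb2 and Nid1) lower. Of 13 proteoglycans, none was at least 2-fold higher and Has1 and Gpc3 were lower than in Pi16/Cd81-high cells. Decorin (Dcn) had means of 89.2 in Pi16/Cd81-low, 168 in Pi16/Cd81-high and 21.1 in Pdgfra-high cells.

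Of 13 matricellular genes, Edil3, Adam23 and Ctgf were at least 2-fold higher than in the others and Thbs1 and Thbs2 lower. Adam23, a surface protein that binds integrins, had means of 1.51, 0.236 and 0.450 in Pi16/Cd81-low, Pi16/Cd81-high and Pdgfra-high Cd34-negative cells, and periostin (Postn) had 16.9, 5.89 and 11.8. Of 14 retinoid and detoxification genes, the aldehyde dehydrogenases Aldh1a2, Aldh1a3 and Aldh3a1 and the alcohol dehydrogenase Adh1 were higher than in the others, and Aldh1a1 lower. Aldh1a3 had means of 0.638, 0.212 and 0.0127 in the 3 classes and Aldh1a1 0.685, 0.497 and 3.85, so that the enzymes that make retinoic acid were not distributed alike.

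Of 14 neural and guidance genes, Stmn2 and the semaphorin receptor Nrp1 were higher than in the others and 6 were lower. Nrp1 had means of 1.91, 0.833 and 0.258. Of 17 transcription factors, Tcf21 and Osr1 were at least 2-fold higher and Ebf1, Prrx1 and Id1 lower than in the others. Tcf21, a factor of fibroblast lineages, was above 0 in 99.2% of Pi16/Cd81-low cells (median 13, highest 48) and in 0.894% of Epcam-high cells. Its mean of 14.0 exceeded those of Pi16/Cd81-high (3.82) and Pdgfra-high cells (6.70), although most cells of these classes also had it above 0. Osr1 had a log2 ratio of 1.08 over Pi16/Cd81-high cells, and of 0.59 with the limit between both classes at a sum of 3. Among 7 Hedgehog pathway genes, the receptor gene Ptch1 was higher (log2 ratio 1.10) and Hhip lower (-1.09) than in Pi16/Cd81-high cells.

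Of 16 crypt-top genes, 0 were higher and 13 lower than in the other Col1a1-positive cells, and 0 were higher and 14 of 15 lower than in Pdgfra-high Cd34-negative cells (median log2 ratio -3.01). The same 16 genes were 9 higher and 2 lower against Pi16/Cd81-high cells (median 1.08), at low levels. Their summed mean was 8.59 in Pi16/Cd81-low, 8.83 in Pi16/Cd81-high and 48.8 in Pdgfra-high cells. The 16 include Pdgfra, which chose the Pdgfra-high class and was left out of the 15. The limit on Pdgfra thus sets the sum of that class in part. The list was chosen with earlier results of these data known, so that these counts are a description and no independent evidence. Without the low-gene cells and the crypt-top-richest cells described below, log2 ratios over Pi16/Cd81-high cells moved from 1.74 to -0.20 for Sox6 and from 2.48 to 0.66 for Emid1. Of 12 adventitial genes, 1 was higher and 5 lower than in Pi16/Cd81-high cells, and 6 higher and 1 lower than in Pdgfra-high cells. None of 10 general fibroblast genes differed 2-fold from Pi16/Cd81-high cells. Of 12 stress genes, 0 were higher in any comparison and 3, 4 and 1 were lower than in the others, the Pi16/Cd81-high and the Pdgfra-high cells.

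Along the sum of Pi16, Pcolce2 and Cd81, the cells that passed the other limits numbered 744 at 0, 237 at 1 to 2, 85 at 3 to 4, 120 at 5 to 9 and 389 at 10 and over. The first 3 bins are the Pi16/Cd81-low cells. Mean Adamdec1 was 41.4, 26.0, 9.88, 4.63 and 0.432 across these bins. It declined within the Pi16/Cd81-low cells already, and so did Serpina3n, with means of 4.56, 2.40, 1.98, 1.58 and 0.997. Col15a1 behaved differently and held its level up to the limit, with 5.57, 4.51, 5.06, 2.02 and 1.44, as did Bmp5 (1.44, 1.49, 1.51, 0.583 and 0.113) and Wnt4 (2.24, 2.06, 1.81, 0.725 and 0.10). Wnt4 did not drop at the limit itself, with means of 1.78 at a sum of 4 and 2.24 at a sum of 5. Ebf1 (0.0565, 0.173, 0.600, 3.00 and 7.13), C3 (0.356, 0.658, 3.19, 9.38 and 18.1) and Grem1 (1.07, 1.32, 2.48, 4.01 and 3.89) increased from the first bin, Grem1 up to the fourth.

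**Figure D3:**
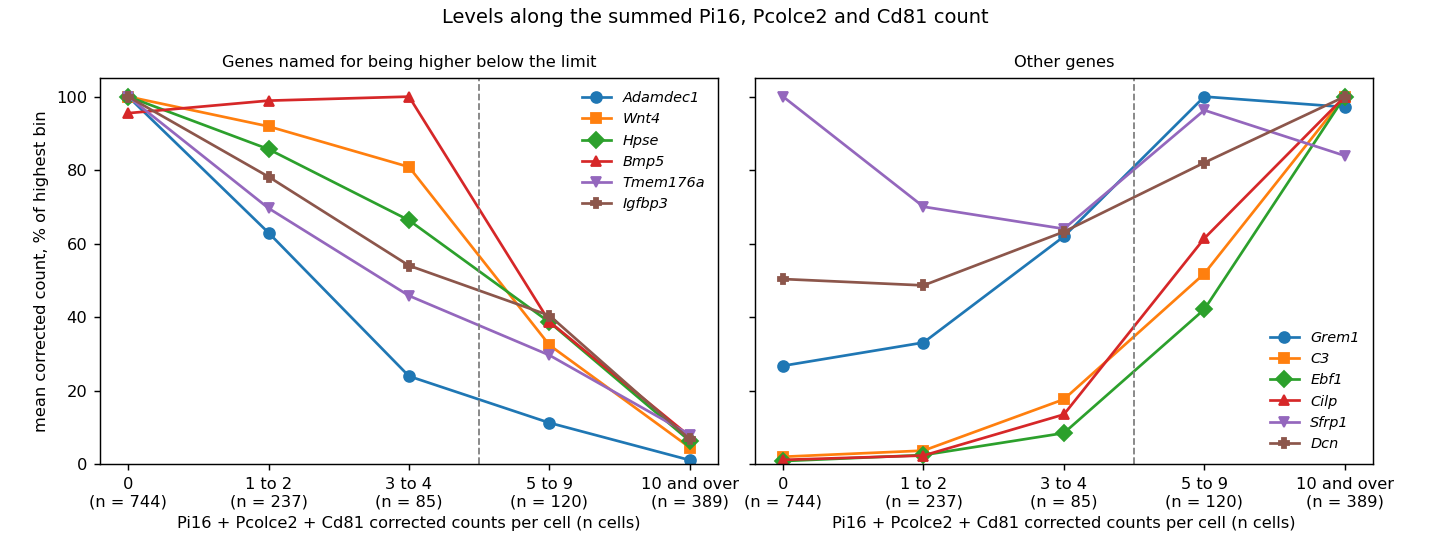
Mean corrected count as percent of the highest bin (y axis) across bins of the summed Pi16, Pcolce2 and Cd81 value (x axis), with the limit of the rule as a dashed line. The left panel holds 6 genes lower in Pi16/Cd81-high cells and the right panel 6 other genes. Of the latter, Sfrp1 had its highest mean, 5.48, in the first bin. Adamdec1 goes from 41.4 in the first bin to 0.432 in the last, and Ebf1 from 0.0565 to 7.13.

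By their nearest neighbours, computed from the deposited log values without the rule genes, Pi16/Cd81-low cells lay mostly beside cells of their own class. Of the 15 nearest neighbours of a Pi16/Cd81-low cell, 85.1% on average were Pi16/Cd81-low cells, 4.28% Pi16/Cd81-high, 3.71% Pdgfra-high Cd34-negative and 6.48% remaining Col1a1-positive cells. The class made up 33.7% of the cells searched. A majority of own-class neighbours was found for 91.7% of its cells, against 85.9% for Pi16/Cd81-high cells and 35.0% for the remaining Col1a1-positive cells. In turn, Pi16/Cd81-low cells made up 11.6% of the neighbours of Pi16/Cd81-high cells and 21.8% of those of the remaining cells, so the classes were not cleanly separated.

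Within the class, clustering of the 1066 cells at a resolution of 0.5 gave 5 groups of 430, 271, 231, 80 and 54 cells. The groups were defined from the same values that describe them, so their leading genes are a description. In the largest (40.3%), Mgp, an inhibitor of calcification, had a mean of 44.1 and Sfrp2 of 1.54, and Adamdec1 was low at 7.82. In the second (25.4%), Adamdec1 had a mean of 89.9, the matrix glycoprotein tenascin C (Tnc) 7.96, Ccl11 12.4, Igfbp3 24.0, Serpina3n 6.20 and the potassium channel gene Kcnk2 3.04, whereas Sfrp2 and Stmn2 were low with 0.00738 and 0.229.

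The third group (21.7%) had the highest crypt-top sum, 16.3 against 5.69 to 7.49 in the other groups, with Wnt4 at 4.01, Bmp5 at 2.86, Bmp7 at 1.04 and the fatty acid transporter Cd36 at 1.54. Its Grem1 mean was the lowest of the groups (0.216). Its mean haemoglobin sum was the highest (24.0), but 1 cell of the whole class had a sum of 5500 against a median of 0. This mean can therefore be set by 1 cell and is not a trait of the group. The fourth (7.50%) had the highest adventitial sum (49.9) with S100a4 at 8.40, Scara5 at 1.85, Stmn2 at 12.1, Col15a1 at 8.07 and Ccl8 at 1.30. The fifth (5.07%) had a median of 1758.5 genes per cell, against 2535 to 3260.5 in the other groups, and an epithelial sum of 16.8 against 2.36 to 3.96, led by epithelial genes such as Elf3 (1.00) and Cdh1 (0.741). Its C3 mean of 4.87 was the highest of the 5 groups. Without the fifth group, 450 genes were at least 2-fold higher and 537 lower than in Pi16/Cd81-high cells. Without the third as well these counts were 344 and 597.

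Across the 1066 cells, Spearman's rho between Adamdec1 and Tnc was 0.59, and it was -0.37 between Adamdec1 and Sfrp2, -0.40 between Adamdec1 and Mgp, -0.34 between Adamdec1 and Stmn2 and -0.32 between Adamdec1 and Grem1. The cells share 1 library and were scaled to a common depth together. Genes with the largest variance over mean in the class were the haemoglobin genes Hbb-bs, Hba-a1, Hba-a2 and Hbb-bt, followed by Adamdec1, the mitochondrial mt-Rnr2, the actin-severing Gsn and Mgp. Hbb-bs was above 0 in 12.5% of the cells with a highest value of 3386, while Gsn (median 164, highest 473) was above 0 in all.

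**Figure D4:**
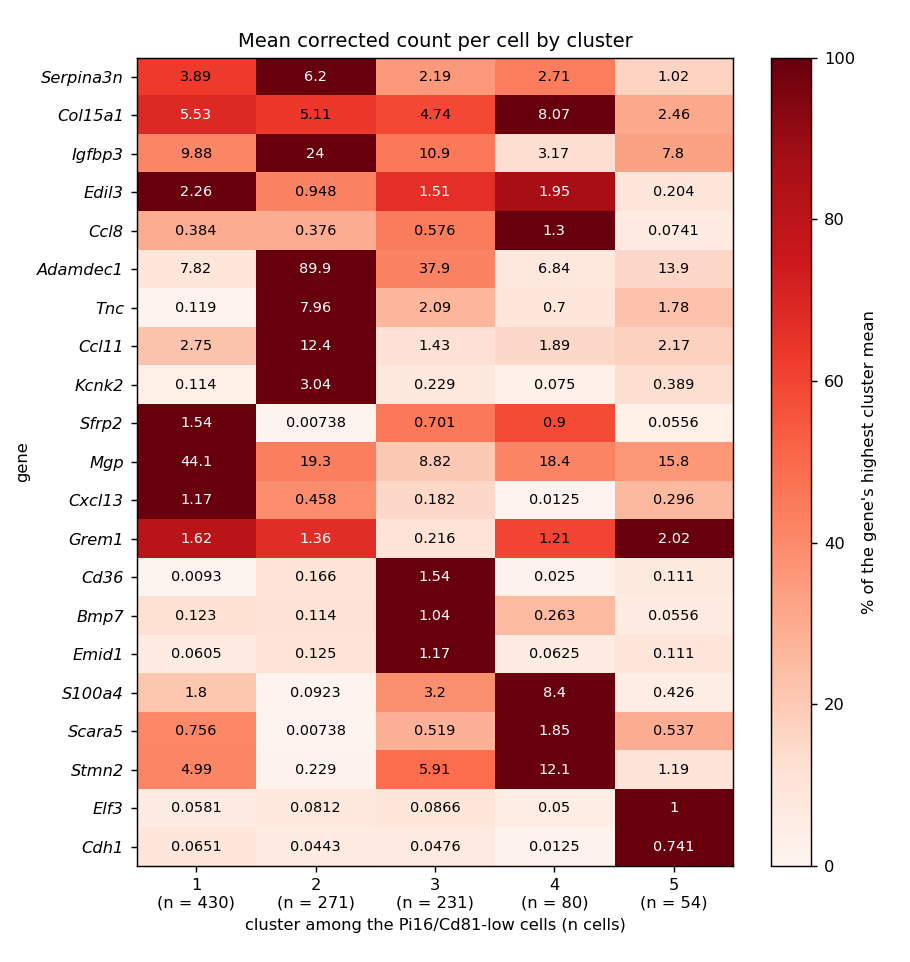
Mean corrected count (printed in each field) of 21 genes in the 5 groups of Pi16/Cd81-low cells (n = 430, 271, 231, 80 and 54). Adamdec1 peaks at 89.9 in the second group, Bmp7 peaks at 1.04 in the third, Stmn2 peaks at 12.1 in the fourth, and Elf3 and Cdh1 are highest in the fifth.

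The same limits applied to the reporter library, which the rule had not used, gave 1037 of 2143 Col1a1-positive cells (48.4%). The reporter library had a median total of 3150 corrected counts per cell, against 8972, so levels were compared only within each library. Against the 1106 other Col1a1-positive reporter cells, 0.306% of 9143 genes were at least 2-fold higher and 1.18% lower. Of the 5 markers, Edil3 (log2 ratio 1.25) and Col15a1 (1.08) were at least 2-fold higher, while Serpina3n (0.72), Igfbp3 (0.50) and Ccl8 (0.42) were not. Of 139 genes higher in the wild-type comparison and tested in both, 132 lay on the same side in the reporter library (95%, against 56.8% of all genes), but 11 were also 2-fold higher there (7.91%) and 0 were 2-fold lower. Of 356 lower genes, 302 lay on the same side (84.8%, against 43.2% of all genes) and 89 were 2-fold lower (25%). At these limits the other reporter cells held 1 Myh11-high and 5 Pdgfra-high Cd34-negative cells.

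Against the 210 Pi16/Cd81-high reporter cells, 7.95% of genes were at least 2-fold higher and 1.92% lower in the Pi16/Cd81-low cells. Of 315 genes higher in the wild-type comparison, 309 lay on the same side (98.1%, against 63.6% of all genes) and 239 were 2-fold higher (75.9%). Of 351 lower genes, 305 lay on the same side (86.9%, against 36.4% of all genes), 121 were 2-fold lower (34.5%) and 3 were 2-fold higher. All 5 markers were at least 2-fold higher, with reporter log2 ratios of 2.17 for Serpina3n, 2.03 for Col15a1, 3.83 for Igfbp3, 2.80 for Edil3 and 1.37 for Ccl8. Adamdec1 (4.50), Wnt4 (3.52), Fgf10 (3.53), Tmem176a (3.1), Hgf (2.25), Stmn2 (2.20) and Bmp5 (2.03) were likewise higher in the reporter library, and Ebf1 (-2.93), Cilp (-2.74), Ackr4 (-2.66) and C3 (-1.70) lower.

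For Grem1 the value in this comparison depended on the limits, and the difference between the libraries was not tested. Its log2 ratio over Pi16/Cd81-high cells was -1.65 in wild-type cells but 0.17 in reporter cells, where the means were 0.669 in 1037 Pi16/Cd81-low and 0.595 in 210 Pi16/Cd81-high cells. It was -0.53 in reporter cells with limits scaled to their lower totals. The libraries differ in mouse line, sort and kit, which cannot be told apart here. With limits scaled to the lower totals of the reporter library, 1635 Pi16/Cd81-low cells were compared with 234 Pdgfra-high Cd34-negative cells, and 4.84% of genes were at least 2-fold higher and 3.28% lower. Of 505 genes higher in the wild-type comparison, 472 lay on the same side (93.5%, against 53.0% of all genes). Among these 505, 241 were 2-fold higher (47.7%) and 5 were 2-fold lower. Of 393 lower genes, 380 lay on the same side (96.7%, against 47.0% of all genes), 218 were 2-fold lower (55.5%) and 0 were 2-fold higher. Serpina3n, Col15a1, Edil3 and Ccl8 were again at least 2-fold higher, and Igfbp3 had a log2 ratio of 0.70.

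**Figure D5:**
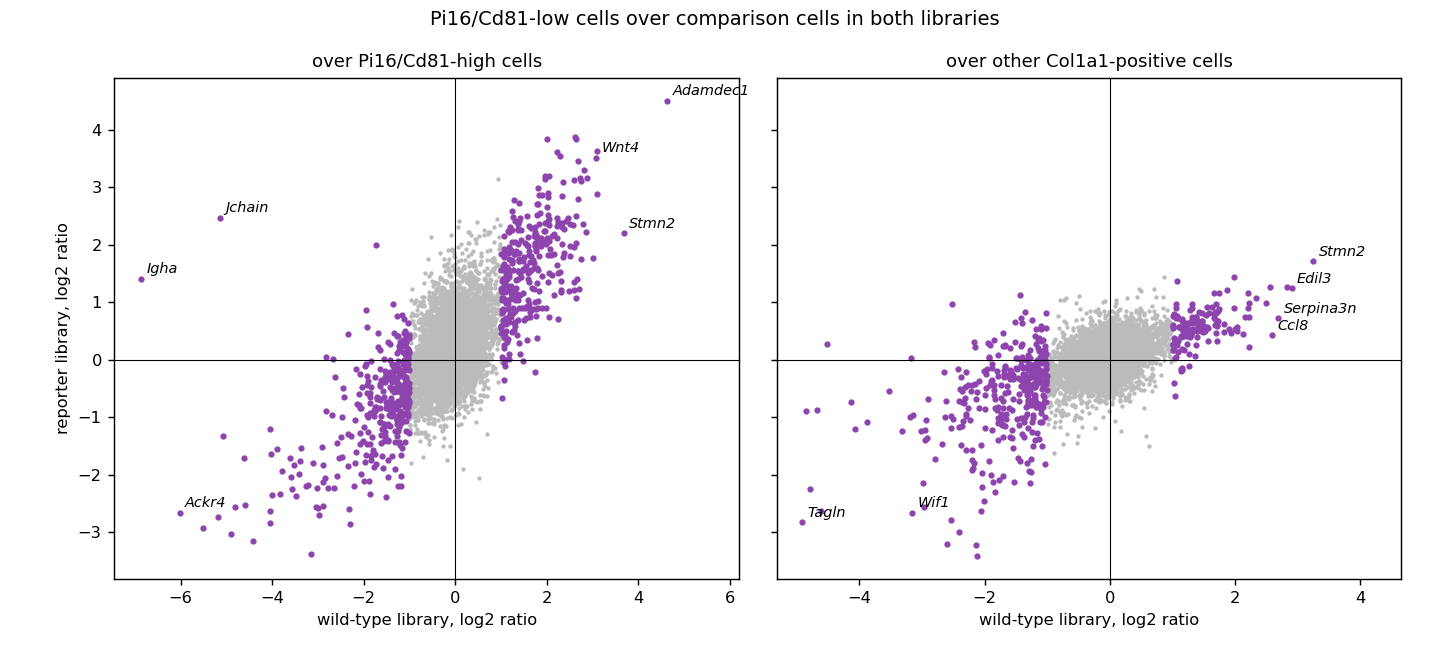
Log2 ratio within wild-type (x axis) and within reporter cells (y axis) for each gene tested in both, over Pi16/Cd81-high cells (left) and over all other Col1a1-positive cells (right), with genes at least 2-fold different in the wild-type library in purple. Adamdec1 lies at 4.63 and 4.50 on the left, and on the right the reporter ratios span a narrower range than the wild-type ratios.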

How the data were processed

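Cells were sorted, pooled within each mouse line and sequenced as 1 droplet library per line. Per the submitters' processing notes and the study's methods, the authors used Cell Ranger, R 3.6.2 and Seurat 3.1 with SCTransform. The score values as deposited are whole-number UMI counts corrected by SCTransform. The deposited second table holds the natural log of the same counts plus 1, and differed from values recomputed here by at most 5.33e-15. Totals per cell ran from 6120 to 16389 (median 8972) in 7495 wild-type cells with 17809 genes and from 2314 to 4432 (median 3150) in 4409 reporter cells with 15972 genes. Because depth had been adjusted, a value above 0 need not be a molecule of that cell.

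The cells, the 5 markers and the 33 gene lists were chosen with earlier results of these data known. Class means were compared as log2 ratios with a pseudocount of 0.01, leaving out the 9 genes of the rule, and shares carry Clopper-Pearson 95% intervals. Genes named are the markers, the rule genes, the 12 highest and 8 lowest ratios over the other cells and the 8 highest and 8 lowest over each of the other classes with a mean of at least 0.5 in the higher class, the 8 largest variances over mean, and genes of the lists with a mean of at least 0.1. Leading genes of groups within the class, list members below that mean and Tmem176b were named after their values were seen. Neighbours and groups used 2000 variable genes without the rule genes, 30 principal components, 15 neighbours and Leiden clustering. In the reporter library the limits were used as written and, as an alternative, scaled by 0.351, the ratio of the median totals. Coordinates are GENCODE M21 (341 of 344 named genes) and start regions RefSeq, both GRCm38. Python 3.11.15, numpy 2.4.6, scipy 1.17.1, scikit-learn 1.9.0, scanpy 1.11.5, leidenalg 0.10.2 and matplotlib 3.10.9 were used. The ratio calculation was tested on simulated data. Scrublet marked 7 wild-type cells (0.0934%) and 5 reporter cells (0.113%) as doublets, too few for the caller to have worked, and cells were kept. The deposited tables hold no comparisons of the authors. Some genes of the lists are not reported here.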

Additional observations from a re-analysis of the deposited data

Results flagged for a closer look

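For 2 antibody genes the ratio of Pi16/Cd81-low over Pi16/Cd81-high cells had opposite signs and more than 2-fold size in the libraries. The log2 ratio of Igha was -6.87 in wild-type and 1.41 in reporter cells, and that of Jchain was -5.14 and 2.47. With limits scaled to the lower totals of the reporter library, the log2 ratios there were 0.995 for Igha and 0.20 for Jchain, both under 2-fold, so the size of this discrepancy depends on the limits. In the wild-type library 1 Pi16/Cd81-high cell held 2192 corrected counts of Igha and 688 of Jchain, which was 99.1% and 98.7% of the class sums. Neither difference between the libraries was tested, since each library is 1 sample.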

How the results depend on the processing

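With a pseudocount of 0.1, the genes at least 2-fold higher and lower numbered 79 and 273 over the other Col1a1-positive cells, 149 and 235 over Pi16/Cd81-high cells and 279 and 315 over Pdgfra-high Cd34-negative cells. With genes required above 0 in 10% of cells these counts were 104 and 315, 253 and 237, and 370 and 345, because fewer genes were tested. With no filter on low values, 856 genes were lower than in Pi16/Cd81-high cells. All other counts stayed within 1.5 times of those reported under the alternatives run. With scaled limits, 14.5% of the genes higher in the wild-type library over the other cells were 2-fold higher in the reporter library. Over 12 alternatives, 5272 of 5688 gene ratios moved by less than 1.5-fold, 408 moved further, 189 of them with the larger pseudocount, and 8 changed sign. With Col1a1 of at least 10, Igha over the others was 0.11, Jchain 0.28 over the others and 0.29 over Pi16/Cd81-high cells, and Ptn -0.12 over Pdgfra-high cells. Ptn was -0.0079 there without cells above 10% mitochondrial counts, and 95.6% of its sum lay in 1 cell. Without the low-gene group and the group richest in crypt-top genes, Sox6 over Pi16/Cd81-high cells was -0.20 and Cd36 was -0.33 over Pi16/Cd81-high and -0.68 over Pdgfra-high cells. Leaving out these groups and the clustering resolutions of 0.3 (4 groups) and 0.8 (7 groups) were chosen after seeing the data. The cells numbered 724 to 1091 across the limits and filters tried, 724 without those above 10% mitochondrial counts. No paired analysis was possible because each mouse line is 1 library with no replicate number. The cause of these shifts was not tested, doublets could not be removed with confidence, and the differences between mice cannot be known from pooled cells.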
